A study of Mus musculus with 2 samples.

Results

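The genes described here are Trp53, which encodes the transcription factor p53, and 9 of its target genes: Cdkn1a, Mdm2, Aen, Eda2r, Ccng1, Phlda3, Trp53inp1, Bax and Zmat3. They are 10 of the 33696 genes listed for each library, taken by gene symbol, and all 10 had molecules counted in both libraries. The set was selected from earlier results of the same libraries, so its differences between libraries are given as values with no test.

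Cells from tibialis anterior (TA) muscles of male mice were profiled by droplet single-cell RNA sequencing in 2 libraries, 1 labelled WT and 1 labelled KO. The 10 TA muscles of 5 mice went into each library as a pool, so differences between animals are not visible. The study's title names autocrine IGF-I of resident mesenchymal progenitor cells, but the labels do not give the deleted gene, the driver of the deletion, the age of the mice or the meaning of ND, which both labels carry. The same digestion for 1 h at 37 °C preceded both libraries, and both labels give batch 1. The labels call the cells fibro-adipogenic progenitors (FAPs), whereas the sort took all viable cells, and FAP-like cells made up 13.2% and 5.04% of the kept barcodes of the libraries labelled WT and KO.

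Throughout, paired values are in the order WT, then KO, as the libraries are labelled. Igf1 in FAP-like cells stood at 392 (378 to 406) and 416 (404 to 429) CPM, the standard depth-scaled count, here the gene's molecules relative to all molecules of the class in that library. Which exons the deletion removes is not given in the sources used here, so Igf1 does not check the labels. The kept barcodes numbered 10133 and 17820, with medians of 2926 and 4146 unique molecular identifiers (UMIs, each a counted RNA molecule). The 2 libraries shared 61 barcode sequences. Cells were classed by a gate on 8 marker genes per class, and a class is called X-like. Levels are given for the 12 classes that held 50 or more cells in each library, and ratios for the 8 that held 100 or more. With 1 library per genotype there is no test between genotypes: intervals are at 95% and cover counting error only, and the mice, the strain, the library, its depth and the Cell Ranger version named in its file header (8.0.0 and 9.0.0) cannot be told apart.

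p53 is held at a low level by the ubiquitin ligase Mdm2, itself the product of a p53 target gene, so that p53 limits its own activity. DNA damage, ribosomal stress and other insults free p53 from Mdm2, and it then binds response elements near its target genes and raises the transcription of genes for cell cycle arrest, cell death and repair. Much of this control acts on the protein, so the level of Trp53 RNA is not a measure of p53 activity. In muscle, Cdkn1a (p21) is also known for its part in cell cycle exit of muscle precursor cells, where it does not depend on p53 alone.

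A p53 response element is a pair of decamers, and the promoter windows of the target genes were searched for it because promoters can hold such elements. RefSeq promoter windows of build GRCm38.p6, running from 250 bases before to 50 bases after a start site, were given for 8 of the 10 genes, in 10 windows. The p53 decamer consensus, a palindrome that reads the same on both strands, was found without a mismatch in windows of 6 genes, Trp53, Cdkn1a, Mdm2, Aen, Ccng1 and Bax. It was not found in the windows of Eda2r and Phlda3. Over all 32851 windows of this length 8.36% held such a decamer, 2.12% held a pair with at most 2 mismatches and at most 13 bases between, and 0.0731% held a pair with no mismatch. The stretches around the decamers of 5 targets are shown 5′ to 3′ on the strand of the gene, with the decamers, with or without a mismatch, in capitals.
Cdkn1a, upstream start, chr17:29090886-29090967, plus strand: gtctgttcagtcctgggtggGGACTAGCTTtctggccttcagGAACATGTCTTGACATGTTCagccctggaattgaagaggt
Mdm2, chr10:117710915-117710964, minus strand: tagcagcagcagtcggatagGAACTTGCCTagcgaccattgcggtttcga
Aen, chr7:78895917-78895966, plus strand: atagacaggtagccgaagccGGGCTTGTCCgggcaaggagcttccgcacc
Ccng1, chr11:40755442-40755491, minus strand: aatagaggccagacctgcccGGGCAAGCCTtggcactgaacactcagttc
Bax, chr7:45467059-45467134, minus strand: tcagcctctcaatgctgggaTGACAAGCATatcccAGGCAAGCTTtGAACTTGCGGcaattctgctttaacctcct
The Cdkn1a stretch holds a pair with 0 mismatches and 12 bases between, and a directly adjoining pair with 1 mismatch, at positions -73 to -32 from the upstream start. The window of the second Cdkn1a start held no decamer. The Bax stretch holds 2 pairs, and the one with 1 base between has 2 mismatches. A match describes the letters only and does not show binding.

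Cdkn1a, which encodes p21, an inhibitor of cyclin-dependent kinases, was higher in the library labelled KO in 12 of 12 classes. Endothelial-like cells held the highest level in both libraries, 1075 CPM (1055 to 1096) against 2086 CPM (2072 to 2101), from 10221 and 81716 UMIs. In mural-like cells, which are vessel-wall pericytes and smooth muscle cells, Cdkn1a stood at 329 CPM (313 to 346) against 777 CPM (761 to 792). Mural-like cells had the widest Cdkn1a ratio of the 8 classes, a log2 ratio of 1.23 (1.16 to 1.32). Endothelial-like cells stood at 0.96 (0.93 to 0.99), next to myogenic-like cells at 0.94 (0.82 to 1.07) and FAP-like cells at 0.86 (0.80 to 0.93).

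Macrophage-like cells followed at 682 CPM (639 to 727) and 999 CPM (962 to 1037), and tenocyte-like cells at 520 CPM (495 to 546) and 843 CPM (815 to 871). FAP-like cells held 294 CPM (282 to 306) and 535 CPM (521 to 549) of Cdkn1a, and myogenic-like cells, the satellite cells and their progeny, 296 CPM (273 to 319) and 567 CPM (547 to 588). In the library labelled WT the levels of mural-like, myogenic-like and FAP-like cells stood next to each other and the last 2 did not differ beyond counting error. Glial-like cells held 472 CPM (437 to 510) and 581 CPM (557 to 605), the smallest Cdkn1a ratio of the 8 classes, a log2 ratio of 0.30 (0.17 to 0.42).

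The other classes of the library labelled WT held between 44.8 and 212 CPM of Cdkn1a. Myofibre-like barcodes held 64.5 CPM (50.6 to 81.1) and 86.7 CPM (75.4 to 99.4), and this direction was not kept under a stricter cell filter, where the log2 ratio was -0.07 in place of 0.42. T-cell-like cells held 58.3 CPM (37.0 to 87.5) and 166 CPM (141 to 193), and B-cell-like cells 44.8 CPM (24.5 to 75.2) and 118 CPM (88.7 to 155). Perineurial-like cells held 153 CPM (115 to 200) and 430 CPM (370 to 496), and neutrophil-like cells 212 CPM (138 to 310) and 654 CPM (611 to 699). In B-cell-like cells of the library labelled KO 1 cell gave 41.5% of the Cdkn1a UMIs.

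**Figure D1:**
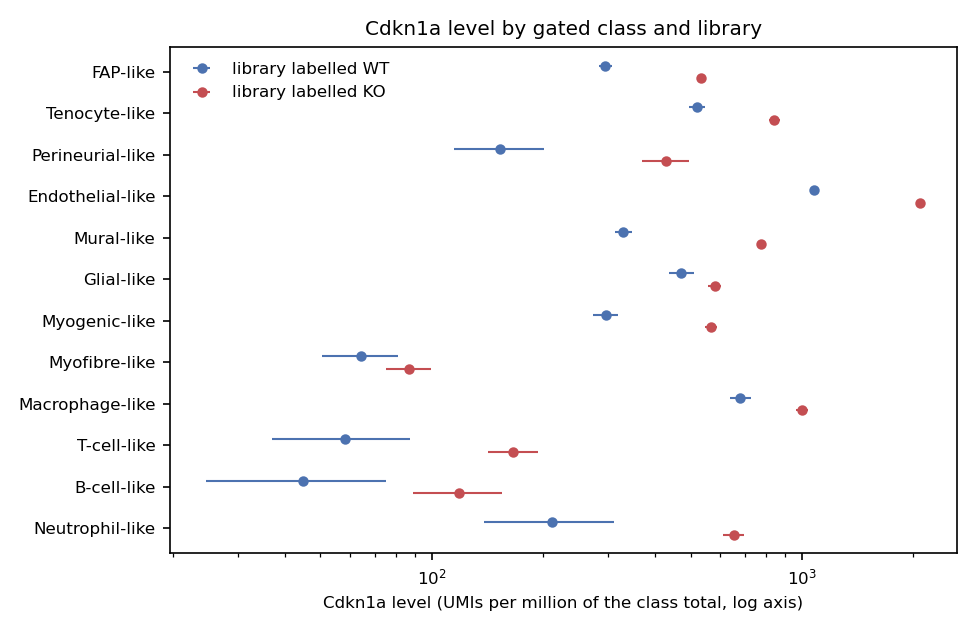
Cdkn1a level in CPM, relative to the class total (log axis) in 12 gated classes, 1 point per library, with exact Poisson 95% intervals for counting error. The library labelled KO is to the right in 12 of 12 classes, from 86.7 CPM in myofibre-like barcodes to 2086 CPM in endothelial-like cells.

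Free RNA enters every droplet, and endothelial-like cells were both numerous (3366 and 8236 cells) and the richest in Cdkn1a. The number of Cdkn1a UMIs per UMI of the 8 endothelial markers was 0.109 and 0.204 in endothelial-like cells. It was 0.665 and 1.09 in mural-like, 4.50 and 4.13 in FAP-like, 7.15 and 7.27 in myogenic-like and 2.71 and 3.49 in macrophage-like cells. Myofibre-like barcodes had 0.525 and 0.487, and T-cell-like cells 0.343 and 0.584. In B-cell-like cells it was 0.106 and 0.358, next to the endothelial-like value in the library labelled WT. This number was not measured in the free RNA itself. The part of free RNA in the Cdkn1a level was therefore not tested in any class, the low levels of B-cell-like, T-cell-like and myofibre-like barcodes included.

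The share of cells with a Cdkn1a UMI was set at equal depth by thinning each cell to 2000 UMIs. After thinning, 72.9% (70.9 to 74.8) of 2048 and 89.8% (89.1 to 90.6) of 6458 endothelial-like cells had a Cdkn1a UMI, with 1318 and 1778 shallower cells left out. The shares in mural-like cells were 32.7% (29.7 to 35.7) and 55.7% (53.4 to 58.1), with 428 and 221 cells left out. In FAP-like cells they were 441 of 1260 cells (32.4% to 37.7%) and 49.5% (46.1 to 52.9), with 77 and 38 left out, and in myogenic-like cells 32.4% (28.4 to 36.7) and 50.6% (46.8 to 54.4), with 59 and 16 left out. Without thinning the shares were 73.3% and 90.5% in endothelial-like, 34.8% and 70.7% in mural-like, 735 of 1337 cells and 79.1% in FAP-like and 39.7% and 73.4% in myogenic-like cells.

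No class is known to lack Cdkn1a altogether, and the lowest thinned shares, those of B-cell-like cells, were 6.10% (2.01 to 13.7) and 14.1% (6.64 to 25.0). Median depths before thinning were 2941.5 and 6718 UMIs in B-cell-like cells, 5679 and 11759 in FAP-like cells and 2337 and 4077 in endothelial-like cells. The thinned Cdkn1a share was higher in the library labelled KO in each of the 12 classes, and the intervals of the 2 libraries overlapped in perineurial-like, myofibre-like, T-cell-like and B-cell-like cells. The median thinned endothelial-like cell held 2 and 4 Cdkn1a UMIs.

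**Figure D2:**
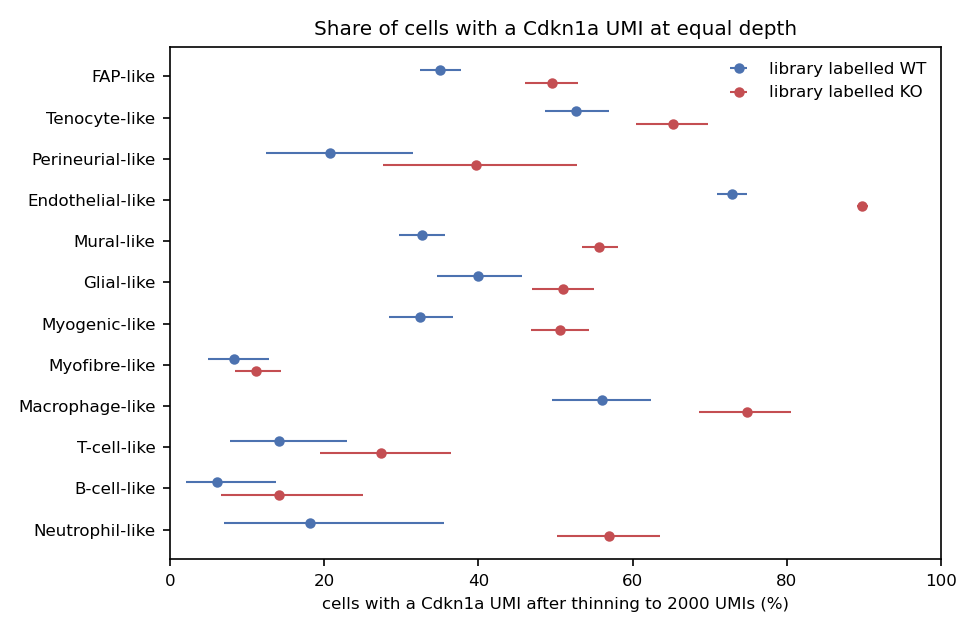
Percent of cells with at least 1 Cdkn1a UMI after each cell was thinned to 2000 UMIs, by gated class and library, with exact Clopper-Pearson 95% intervals for counting error. The widest gap among the larger classes is that of mural-like cells, 32.7% against 55.7%.

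Trp53 itself was counted in every class, though with only 2 UMIs in the 55 neutrophil-like cells of the library labelled WT and 12 UMIs in the 227 of the other. In the library labelled WT its level ran from 16.3 CPM (1.97 to 58.8) in neutrophil-like cells, with a median over classes of 64.4 CPM, to 157 CPM in T-cell-like cells. In the library labelled KO it ran from 9.04 CPM (4.67 to 15.8) in neutrophil-like cells over a median of 88.8 CPM to 164 CPM in myogenic-like cells. FAP-like cells held 55.4 CPM (50.4 to 60.8) and 92.5 CPM (86.9 to 98.5), a log2 ratio of 0.73 (0.58 to 0.90). Tenocyte-like cells held 60.1 CPM (51.8 to 69.4) and 107 CPM (97.6 to 118), a log2 ratio of 0.83 (0.59 to 1.09). Endothelial-like cells held 67.4 CPM (62.3 to 72.9) and 60.9 CPM (58.5 to 63.4), the only class of the 8 in which the Trp53 interval lay below 0. The FAP-like Trp53 ratio was 0.44 without the sub-clusters that 1 library filled almost alone, under the 1.5-fold of 0.58 on the log2 scale. It was 0.47 in 1 draw of the thinning to 2000 UMIs, whereas the draw used for shares of cells gave means of 0.111 and 0.174 Trp53 UMIs per FAP-like cell, so the side of the threshold depended on the draw.

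Mdm2, the ubiquitin ligase that marks p53 for degradation, was above its WT-labelled level in 7 of the 8 classes, by log2 ratios of 0.23 to 0.48, none of them 1.5-fold. Macrophage-like cells held most, 126 CPM (108 to 146) and 173 CPM (158 to 189). Endothelial-like cells held 80.8 CPM (75.2 to 86.7) and 101 CPM (97.6 to 104), and mural-like cells 54.8 CPM (48.2 to 61.9) and 75.9 CPM (71.1 to 81.0). The Mdm2 interval held 0 in tenocyte-like cells and in myofibre-like barcodes, which held 63 and 127 Mdm2 UMIs (42.8 to 71.2 and 44.2 to 63.0 CPM). After thinning, the Mdm2 ratio was 0.05 in FAP-like and 0.04 in tenocyte-like cells. In macrophage-like cells 1 cell gave 9.25% and 8.70% of the Mdm2 UMIs.

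Aen, a nuclease that acts in p53-dependent cell death, had the widest ratio of all members. In FAP-like cells it stood at 9.37 CPM (7.37 to 11.7) and 30.8 CPM (27.5 to 34.3), a log2 ratio of 1.62 (1.35 to 2.10) from 75 and 329 UMIs. Myogenic-like cells held 13.9 CPM (9.40 to 19.9) and 39.9 CPM (34.8 to 45.7) of Aen, and tenocyte-like cells 11.9 CPM (8.37 to 16.4) and 26.8 CPM (22.1 to 32.3). The tenocyte-like log2 ratio of 1.11 rested on 37 and 112 Aen UMIs. In 1 draw of the thinning to 2000 UMIs it was 0.15, from 13.7 and 15.3 CPM of Aen, whereas the draw used for shares left 10 of 584 and 17 of 426 tenocyte-like cells with an Aen UMI, so thinned Aen values varied from draw to draw. Endothelial-like cells held 10.2 and 11.5 CPM, under the floor of 20 CPM for a ratio, although this class held the most Cdkn1a.

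Eda2r, a receptor of the tumour necrosis factor family that binds the A2 form of ectodysplasin, was restricted in where it was counted. It reached 30.7 CPM (23.7 to 39.0) and 74.0 CPM (66.9 to 81.6) in myogenic-like cells, a log2 ratio of 1.24 (0.89 to 1.67). FAP-like cells held 8.12 CPM (6.26 to 10.3) and 21.3 CPM (18.7 to 24.3), and tenocyte-like cells 11.3 CPM (7.84 to 15.6) and 28.7 CPM (23.8 to 34.4). Endothelial-like cells held 24.2 CPM (21.2 to 27.5) and 23.5 CPM (22.0 to 25.1), a log2 ratio of -0.04 (-0.25 to 0.17). No Eda2r UMI was counted in T-cell-like or B-cell-like cells of either library, which allows up to 7.61 and 3.05 CPM in T-cell-like cells, and mural-like cells held 0.649 and 1.30 CPM.

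The Eda2r UMIs of perineurial-like cells, 57.8 CPM in the library labelled WT, came for 60.0% from 1 cell. After thinning, 4.47% (2.85 to 6.63) and 10.5% (8.29 to 13.1) of myogenic-like cells had an Eda2r UMI, against 0.206% and 0.0574% of mural-like cells. Unthinned, the myogenic-like shares were 7.67% and 26.4% and the mural-like shares 0.214% and 0.408%.

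Ccng1, which encodes cyclin G1, a p53-induced partner of a protein phosphatase, marked myofibre-like barcodes in both libraries, at 1275 CPM (1210 to 1343) and 1360 CPM (1314 to 1408). The next class, T-cell-like cells, held 76.1 and 78.4 CPM, and myogenic-like cells held the least, 24.6 and 20.4 CPM. Its log2 ratios lay between -0.28 and 0.10 in the 8 classes, and the interval held or touched 0 in each of them. Of the myofibre-like barcodes 82.4% and 87.8% had a Ccng1 UMI without thinning, against 6.97% and 12.6% of myogenic-like cells.

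Phlda3, a repressor of Akt signalling, was highest in myofibre-like barcodes, at 293 CPM (262 to 326) and 216 CPM (198 to 236), and in perineurial-like cells, at 220 CPM (173 to 275) and 451 CPM (389 to 519). In FAP-like cells Phlda3 stood at 31.8 and 32.5 CPM (log2 ratio 0.03, -0.21 to 0.27). In glial-like cells Phlda3 stood at 39.7 and 24.7 CPM from 56 and 100 UMIs, a log2 ratio of -0.66 (-1.17 to -0.18). Of all pairs of gene and class past the floors, it alone was lower in the library labelled KO by 1.5-fold, and it stayed past that fold in 15 of 18 alternatives, the smallest being -0.49 with classes from clusters. No Phlda3 UMI was counted in T-cell-like cells, which allows up to 7.61 and 3.05 CPM, and macrophage-like cells held 3.63 and 2.15 CPM.

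Trp53inp1, a nuclear protein that binds p53 and also acts in autophagy, was highest in perineurial-like, T-cell-like and mural-like cells of the library labelled WT. Mural-like cells held 90.7 CPM (82.2 to 99.8) and 79.4 CPM (74.5 to 84.6), and T-cell-like cells 96.4 CPM (68.2 to 132) and 160 CPM (136 to 187). Its interval lay below 0 in FAP-like, endothelial-like, mural-like and myogenic-like cells, with log2 ratios from -0.42 to -0.19. Without sub-clusters of mostly 1 library the Trp53inp1 ratio was 0.03 in FAP-like cells and -0.06 in myogenic-like cells. In tenocyte-like cells Trp53inp1 stood at 42.4 CPM (35.5 to 50.3) and 65.1 CPM (57.6 to 73.4), a 1.52-fold ratio that lay just inside the 1.5-fold and stayed there in 14 of 18 alternatives.

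**Figure D3:**
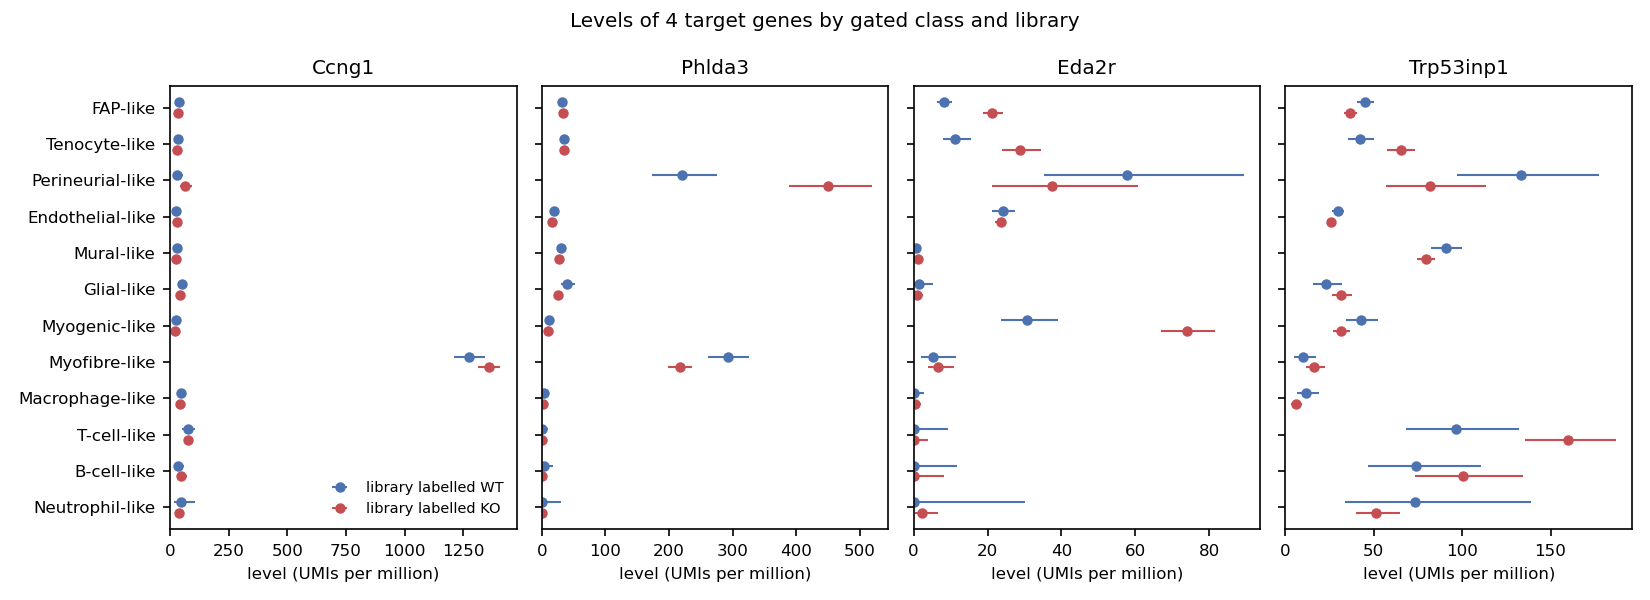
Levels of Ccng1, Phlda3, Eda2r and Trp53inp1 in CPM, relative to the class total, by gated class and library, with exact Poisson 95% intervals for counting error and a separate linear axis per gene. Ccng1 stands at 1275 and 1360 CPM in myofibre-like barcodes and under 80 CPM elsewhere, and Eda2r is highest in myogenic-like and perineurial-like cells.

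Bax, a pore-forming protein of the Bcl-2 family that opens mitochondria in cell death, differed little between libraries. Macrophage-like cells held 100 CPM (84.2 to 118) and 105 CPM (93.6 to 118). FAP-like cells held 35.5 CPM (31.5 to 39.8) and 43.9 CPM (40.0 to 48.0), and endothelial-like cells 52.6 CPM (48.1 to 57.4) and 61.8 CPM (59.4 to 64.3). Among classes in which Bax passed the floors, its widest ratio was 1.45-fold, in myogenic-like cells at 25.6 and 37.5 CPM, just outside the 1.5-fold, and its log2 ratio of 0.54 was -0.01 without sub-clusters of mostly 1 library. Zmat3, an RNA-binding splicing regulator, stayed under 20 CPM in all 12 classes of both libraries, with the highest levels in glial-like cells at 17.7 and 16.3 CPM. Its FAP-like level was 13.9 CPM (11.4 to 16.7) and 12.2 CPM (10.2 to 14.4), with no higher level in the library labelled KO. Tenocyte-like cells held 15.1 and 7.42 CPM of Zmat3 from 47 and 31 UMIs, a log2 ratio of -0.94 (-1.73 to -0.34). Myogenic-like cells held 8.36 and 3.90 CPM from 18 and 21 UMIs. The Zmat3 interval lay below 0 in 2 of the 12 classes and above 0 in 0, at levels under the floor for a ratio.

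Across the 8 classes and 10 genes, 57 of 80 pairs passed the floors of 20 CPM in 1 library and 100 UMIs over both, and Zmat3 passed in none. Of these pairs 14 were at least 1.5-fold higher in the library labelled KO and 1 was lower. Since a gene can pass through the library in which it is high, and since the genes were selected on these libraries, the counts describe the set and support nothing further. Cdkn1a gave 5 of the 14 pairs.

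In FAP-like cells 4 of 9 genes past the floors, Trp53, Cdkn1a, Aen and Eda2r, were at least 1.5-fold higher in the library labelled KO and 0 were lower. Of all 7137 genes past the same floors in FAP-like cells 12.2% were higher and 11.4% lower by that fold. In tenocyte-like cells 5 of 9 were higher, the same 4 and Trp53inp1, where 11.5% of all genes were higher and 9.52% lower. In myogenic-like cells 3 of 8 were higher, Cdkn1a, Aen and Eda2r, where 11.9% were higher and 10.8% lower.

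In endothelial-like cells Cdkn1a alone of 7 was higher by that fold, where 2.67% of all genes were higher and 5.29% lower, and its ratio ranked 48 from the top of 6671 genes. The same held in mural-like cells, 1 of 7, where 3.35% were higher and 5.49% lower, and Cdkn1a ranked 17 from the top of 7013 genes. In glial-like cells 0 of 7 were higher and 1 was lower, where 4.49% were higher and 3.74% lower. In myofibre-like barcodes (5 genes past the floors; 5.88% of all genes higher and 5.59% lower) and macrophage-like cells (5 genes; 13.7% and 9.04%) no member passed the fold in either direction. The median log2 ratio of all genes lay between -0.00 and 0.05 except in macrophage-like cells, where it was 0.13 beside a Cdkn1a ratio of 0.55.

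**Figure D4:**
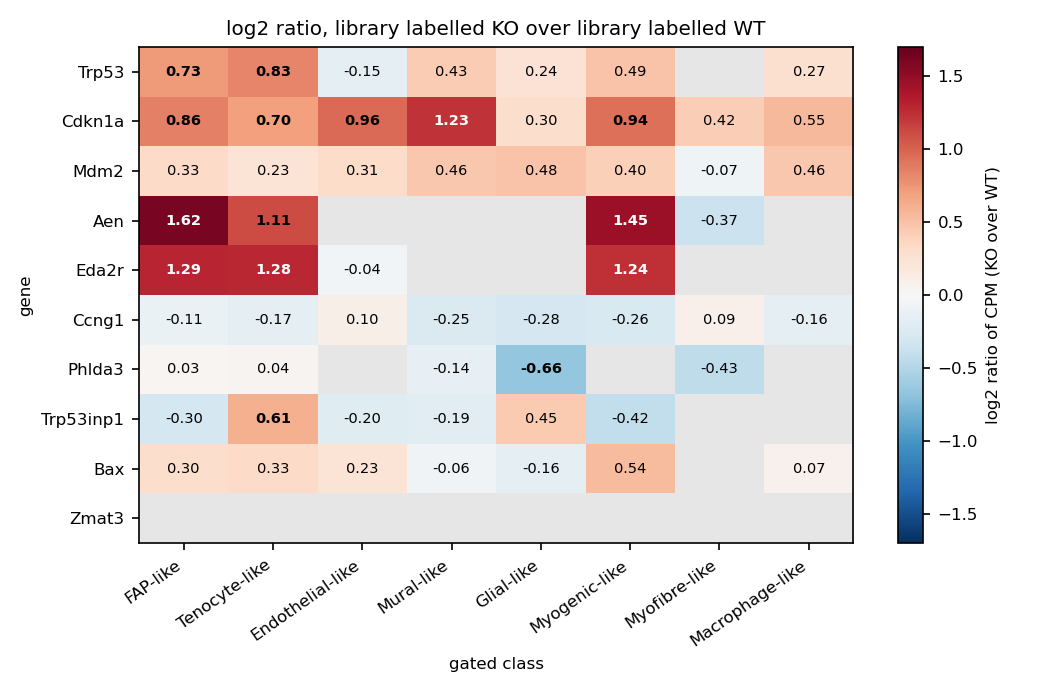
Log2 ratio of the level in the library labelled KO over that in the library labelled WT for 10 genes (rows) in 8 gated classes (columns), with a pseudocount of 1 CPM. Bold values are at least 1.5-fold, and grey marks pairs under the floors. Cdkn1a is above 0 in all 8 columns, while Aen and Eda2r are past 1.5-fold in the FAP-like, tenocyte-like and myogenic-like columns alone.

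FAP-like, endothelial-like, mural-like and myogenic-like cells were each clustered again without the 10 genes, and 33 sub-clusters held at least 30 cells of each library. Cdkn1a was higher in the library labelled KO in 32 of the 33, at least 1.5-fold in 30, and Mdm2 in 25, at least 1.5-fold in 6. Aen was higher in 24, Trp53 in 23, Eda2r and Bax in 19 each, Zmat3 in 14, Trp53inp1 in 13, Ccng1 in 12 and Phlda3 in 11. Phlda3 was at least 1.5-fold lower in 12 of the 33 and Zmat3 in 10, and many of these levels rest on few UMIs. Cdkn1a was 1.66-fold to 2.54-fold higher in the 8 FAP-like sub-clusters, 1.48-fold to 2.73-fold in the 10 endothelial-like and 1.48-fold to 6.60-fold in the 11 mural-like ones, where the upper end rests on 7 and 69 UMIs in 38 and 41 cells. The exception was the myogenic-like sub-cluster led by H3c3, Pde4c and Mki67, at 240 and 232 CPM from 92 and 67 UMIs in 106 and 44 cells. Mki67, a gene of dividing cells, had 55 UMIs in myogenic-like cells of the library labelled WT and 0 in those of the library labelled KO, so it does not describe the KO-labelled cells of this sub-cluster.

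In endothelial-like cells Cdkn1a was highest in the sub-cluster led by Ifit2, Ifit3 and Rbp7, at 1798 and 2738 CPM, and in that led by Caprin2, Slc1a1 and F10, at 1532 and 2838 CPM. The sub-cluster led by Selp, Sele and Tll1, of which Selp and Sele are adhesion genes of venules, held less Cdkn1a, 345 and 892 CPM. It held the most Eda2r of the endothelial-like sub-clusters of 30 or more cells in both libraries, 85.4 and 74.7 CPM from 109 and 278 UMIs. Eda2r in FAP-like cells was found above all in the sub-cluster led by Comp and Prg4, whose top genes also hold the tenocyte marker Thbs4, at 20.4 and 71.0 CPM, and in a small one led by Gria4 and Fmo2, at 52.4 and 53.3 CPM from 11 and 23 UMIs. Phlda3 was highest among FAP-like sub-clusters in that led by Sbspon and Coch, at 158 and 129 CPM.

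**Figure D5:**
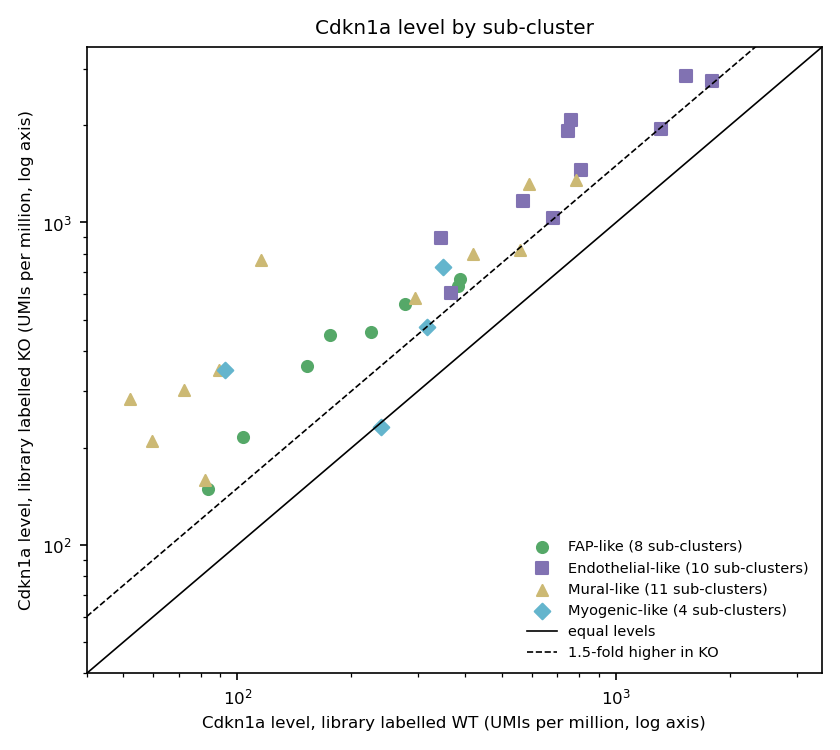
Cdkn1a level in the library labelled KO against that in the library labelled WT, in CPM on log axes, 1 point per sub-cluster with at least 30 cells in each library. Of 33 points, 32 lie above the line of equal levels, and the myogenic-like point at 240 and 232 CPM lies just under it.

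Several sub-clusters belonged almost to 1 library. FAP-like cells led by F2rl1 and Thbs1 numbered 2 and 264 and held 590 CPM of Cdkn1a, 126 CPM of Trp53 and 51.0 CPM of Aen in the library labelled KO, the highest Trp53 and Aen levels among its FAP-like sub-clusters of at least 30 cells. Myogenic-like cells led by Plaur numbered 6 and 430 and held 581 CPM of Cdkn1a, 182 CPM of Trp53, 47.7 CPM of Aen and 77.8 CPM of Eda2r. Most myogenic-like cells of the library labelled WT, 377 of 574, were in another sub-cluster, led by C1qtnf3, Ankrd1 and the myofibre marker Myh4, so the myogenic-like values compare cells of different sub-clusters. With all sub-clusters under 30 cells in 1 library left out, the log2 ratio of Aen was 1.13 in FAP-like and 0.67 in myogenic-like cells, that of Cdkn1a 0.78 and 0.87, and that of Eda2r 1.48 and 1.11, while Trp53 in myogenic-like cells went from 0.49 to 0.11. With FAP-like sub-clusters at equal weight the log2 ratios were 0.96 for Cdkn1a, 1.14 for Aen, 0.67 for Eda2r and 0.42 for Trp53.

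In the library labelled KO a cluster of 2878 barcodes, whose median was 1349 UMIs, had no counterpart in the library labelled WT, and 986 of these barcodes were gated as endothelial-like. Il1b, S100a9, S100a8 and Dcn led an endothelial-like sub-cluster of 1 and 1004 cells, and 6 of its top 10 genes were markers of other classes. The cluster as a whole held 1231 CPM of Cdkn1a, and without it the endothelial-like log2 ratio of Cdkn1a was 0.98 in place of 0.96. Sub-clusters with a marker of another class among their top 10 genes were found in all 4 classes. They ranged from FAP-like cells led by Flt1, with Rgs5 (19 and 29 cells), and mural-like cells led by Car3 and Myh4 (118 and 119 cells) to the endothelial-like sub-cluster of 1 and 1004 cells and the myogenic-like one with Myh4 (377 and 36 cells). Without every sub-cluster of this kind the Cdkn1a log2 ratios were 0.91 in FAP-like, 0.98 in endothelial-like and 1.30 in mural-like cells. The myogenic-like Cdkn1a value of 0.76 then rests on 53 cells of the library labelled WT, which held 1 UMI each of Aen and Trp53inp1, too few to read a ratio of these genes.

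Cells with a Cdkn1a UMI were compared with cells without one after thinning, for the summed level of the other 9 genes. In endothelial-like cells the sum was 323 CPM with and 285 CPM without a Cdkn1a UMI for WT, and 324 and 314 CPM for KO. FAP-like cells had 281 and 290 CPM, and 369 and 347 CPM. Myogenic-like cells had 350 and 320 CPM, and 483 and 464 CPM. In mural-like cells the sum was lower in cells with a Cdkn1a UMI in both libraries, at 318 and 325 CPM and at 339 and 358 CPM. Without thinning, the sum with over that without a Cdkn1a UMI was 1.07 in mural-like cells for KO, in place of 0.946, and 1.06 in FAP-like cells for WT, in place of 0.97, so these directions turned. The sums are given without intervals, so gaps as small as these are not read as differences. Of the single genes, Bax, picked after its values were seen, stood at 56.6 CPM with and 43.2 CPM without a Cdkn1a UMI in endothelial-like cells for WT (169 and 48 UMIs), and at 66.9 and 38.8 CPM for KO (776 and 51 UMIs).

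The wider set of 40 further p53 targets was read beside the members. In FAP-like cells 20 of the 40 passed the floors, 3 were at least 1.5-fold higher, Dram1 (60.4 and 142 CPM), a regulator of autophagy, Pcna (55.3 and 110 CPM), the clamp of DNA polymerases, and the kinase Plk3 (26.1 and 41.4 CPM), and the DNA polymerase gene Polk (29.6 and 14.8 CPM) was lower. These 3 of 20 stand beside 12.2% of all FAP-like genes higher and 11.4% lower, and the median log2 ratio of the 20 was 0.04, against 0.03 for all genes. In myogenic-like cells 3 of 21 were higher, Pmaip1 (10.2 and 27.9 CPM), which promotes cell death, Plk2 (36.2 and 72.7 CPM) and Dram1 (16.7 and 29.2 CPM), and Ephx1 (82.2 and 51.5 CPM) and Trim35 (50.6 and 29.5 CPM) were lower, with a median of 0.03 against 0.05. Of all myogenic-like genes 11.9% were higher and 10.8% lower, so in both classes the count of wider targets was near the share of all genes. In tenocyte-like cells 4 of 20 were higher, Plk2, Ppm1d, Pcna and Dram1, and 0 were lower. There 11.5% of all genes were higher and 9.52% lower, and the median of the 20 was 0.19, against 0.05 for all genes.

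In endothelial-like cells Plk3 alone of 25 wider targets was past 1.5-fold (2.67% of all genes higher), at 99.5 and 151 CPM, and Btg2, a growth arrest gene that digestion also induces, stood at 1107 and 1534 CPM. In mural-like cells Plk3 was again the only one of 24 (3.35% of all genes higher), at 37.4 and 74.8 CPM, and Pcna and Ddit4 stood at log2 ratios of 0.52 and 0.50. The medians were 0.10 in endothelial-like and 0.01 in mural-like cells, against 0.01 for all genes in each. Plk3 was also past the fold in glial-like cells (14.2 and 35.9 CPM) and macrophage-like cells (33.4 and 53.7 CPM). In glial-like cells 2 of 22 wider targets were higher and 1 was lower, where 4.49% and 3.74% of all genes were. In macrophage-like cells 2 of 18 were higher and 3 were lower, Sesn1, Plk2 and Gdf15, where 13.7% and 9.04% of all genes were.

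Regulators of p53 were read in the same way. Of 24, those past the floors numbered 14 in FAP-like, 18 in endothelial-like, 15 in mural-like and 15 in myogenic-like cells. Their medians were 0.05, 0.04, 0.02 and 0.04, against 0.03, 0.01, 0.01 and 0.05 for all genes. In each class 1 regulator was past the fold, higher in FAP-like and endothelial-like and lower in mural-like and myogenic-like cells. Of all genes 12.2% and 2.67% were higher in the first 2 classes, and 5.49% and 10.8% lower in the last 2. A count of 1 per class does not set the regulators apart from all genes. Hipk2, a kinase that phosphorylates p53, was 1.5-fold higher in FAP-like cells (39.5 and 60.0 CPM), and Ppp1r13l, an inhibitor of p53, in endothelial-like cells (23.6 and 43.1 CPM). Atm, the kinase that signals DNA breaks, was lower in mural-like cells (31.6 and 19.3 CPM) and stood at log2 ratios of -0.46 in FAP-like and -0.44 in endothelial-like cells. Trp53bp1 was lower in myogenic-like cells (28.3 and 16.2 CPM).

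Other inhibitors of cyclin-dependent kinases did not follow Cdkn1a in FAP-like and myogenic-like cells. FAP-like cells held 335 and 231 CPM of Cdkn1c (p57) and 126 and 96.3 CPM of Cdkn1b (p27), and myogenic-like cells 41.3 and 17.5 CPM of Cdkn1c. In endothelial-like cells Cdkn1c stood at 172 and 241 CPM, a log2 ratio of 0.49 and under the 1.5-fold. Cdkn1b (-0.04) and Cdkn2d (-0.24) were not higher there. Mural-like cells held 74.0 and 122 CPM of Cdkn1c, a log2 ratio of 0.71, with Cdkn1b at 0.24 and Cdkn2d at 0.11. Cell cycle genes were sparse: 1 of 25 passed the floors in FAP-like cells, Rrm1 at 43.6 and 41.1 CPM. Mki67 and Top2a together stood at 45.1 and 0.372 CPM in myogenic-like cells, where neither passed the floors. Their sum was 15.6 and 1.59 CPM in FAP-like cells. It went the other way in endothelial-like cells, at 10.5 and 17.2 CPM, and in mural-like cells, at 2.16 and 6.25 CPM.

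Genes that tissue digestion induces, read as a sign of sample handling, had no common direction over the classes. Their summed level was 31040 and 30799 CPM in FAP-like cells, 20019 and 24575 in endothelial-like, 18522 and 23854 in mural-like and 23352 and 19479 in myogenic-like cells. Their median log2 ratios were -0.00 in FAP-like, 0.30 in endothelial-like, 0.42 in mural-like and -0.23 in myogenic-like cells. For all genes they were 0.03, 0.01, 0.01 and 0.05. The lowest ratio of the 20 in endothelial-like and in mural-like cells was that of Atf3, at -0.01 and -0.02. In mural-like cells 4 of 20 were at least 1.5-fold higher, where 3.35% of all genes were, among them Ier2 (274 and 475 CPM) and Junb (1877 and 2909 CPM), and in endothelial-like cells 3 of 20, where 2.67% of all genes were, among them Dusp1 (512 and 852 CPM) and Klf4 (986 and 1525 CPM). In myogenic-like cells 6 of 20 were lower, where 10.8% of all genes were, with Dnajb1 at 136 and 61.5 CPM, and Hspa1a and Hspa1b, near-identical genes whose reads may be split between them, at log2 ratios of -1.07 and -1.12. The part of handling in the Cdkn1a values was not tested.

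Of the Bcl-2 family genes past the floors, 1 of 5 was at least 1.5-fold higher in FAP-like cells, where 12.2% of all genes were. In endothelial-like cells 0 of 7 were higher (2.67% of all genes), in mural-like 2 of 6 (3.35%) and in myogenic-like 2 of 4 (11.9%). In mural-like cells 1 of 6 was lower, where 5.49% of all genes were. With so few genes the counts describe the list only. The survival gene Bcl2l1 stood at 191 and 285 CPM in endothelial-like cells (log2 ratio 0.57), at 51.1 and 89.2 CPM in mural-like cells (0.79). FAP-like cells held 18.0 and 28.9 CPM of Bcl2l1 (0.66). Mcl1, also a survival gene, stood at 339 and 519 CPM in mural-like cells (0.61). Bad, a death-promoting member, stood at 25.1 and 17.5 CPM in mural-like cells, and Hrk, of the same kind, at 21.2 and 12.3 CPM. Other members went the other way. The death-promoting Bcl2l11 had a log2 ratio of 0.29 in mural-like cells, and Bbc3 0.46 in endothelial-like cells. The survival gene Bcl2 stood at -0.10 (-0.29 to 0.09) in mural-like cells. In myogenic-like cells the genes past the fold were Bcl2 (0.69) and the death-promoting Pmaip1 (1.36). The medians of the family were 0.17 in FAP-like, 0.06 in endothelial-like, 0.10 in mural-like and 0.41 in myogenic-like cells. For all genes they were 0.03, 0.01, 0.01 and 0.05.

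Over 16 profiles, the 8 classes in both libraries, the levels of the members did not follow a common order of classes. The Pearson correlation of log2(CPM + 1) of Cdkn1a was 0.82 with Bax, 0.66 with Trp53, 0.61 with Mdm2 and 0.08 with Eda2r, and it was -0.81 with Ccng1 and -0.73 with Phlda3, the 2 genes high in myofibre-like barcodes. Profiles of 1 library share depth and free RNA and the 2 profiles of a class share its cell type, so these values describe the profiles only. Among 10366 genes the profile of Cdkn1a was most like those of Pdcd6ip (0.959), Mindy3 (0.956) and Zfp800 (0.953). That of Mdm2 was most like Traf6 (0.943), Dazap2 (0.942) and Ppp4c (0.933), and that of Eda2r most like Slco2a1 (0.890), Inhbb (0.873) and Bmp4 (0.872). The profile of Zmat3, which stayed under 20 CPM, was most like Ranbp17 (0.967), Map1a (0.943) and Tmem106b (0.939).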

How the data were processed

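The authors deposited unnormalized UMI counts for every gene in every called barcode. Cell Ranger 9.0.0 and mm10 are named in the submitters' processing notes; per the file headers the version was 8.0.0 (WT) and 9.0.0 (KO). Library chemistry was 10x Genomics GEM-X 3′ version 4 per the labels' protocols. Totals were 38014703 UMIs in 11360 barcodes (WT) and 101570863 UMIs in 19531 barcodes (KO). Barcodes under 500 genes or over 10% mitochondrial UMIs were dropped. Doublets by the Scrublet method were removed, 1.22% and 3.76% against 4.53% and 7.78% expected, so doublets remain.

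A marker was on in a cell at 10% or more of its 95th percentile among barcodes with a UMI. A class needed at least 3 of its 8 markers on and a lead of 2 over the next class, thresholds set after marker counts were seen. The gate named 87.4% and 81.1% of kept barcodes. UMIs were summed per class and library and scaled to CPM, and log2 ratios took a pseudocount of 1 CPM. Poisson, Clopper-Pearson and conditional binomial intervals are exact, at 95%, for counting error; ratio intervals use no pseudocount. A count of 0 was given a limit of 3 counts. Sub-clusters came from Leiden clustering (leidenalg 0.10.2) on 20 components at resolution 0.5. Python 3.11.15 with numpy 2.4.6 and scipy 1.17.1 was used.

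Samples were grouped by genotype label, with 1 library each. Named genes are the 10 members, the 3 largest and 3 smallest ratios of each related list in FAP-like, endothelial-like, mural-like and myogenic-like cells, of which examples are printed, and the 3 genes most like 4 members in profile. Genes named as past 1.5-fold outside that rule, and the genes that lead sub-clusters, were chosen after their values were seen. The members and lists were chosen with earlier results of these data known. Cells were thinned to 2000 UMIs in 2 separate draws, 1 for shares of cells and 1 for ratios. The procedure was tested on simulated data. Alternatives to filters, doublets, gate, clustering, scaling, depth, weighting, pseudocount, floors and fold were tried, and 4 alternatives were added after the data were seen.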

Additional observations from a re-analysis of the deposited data

Results flagged for a closer look

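Trp53 had a counting interval wholly above 0 in 4 of the 8 classes and wholly below 0 in endothelial-like cells. Its log2 ratio was 0.83 in tenocyte-like and -0.15 in endothelial-like cells, a gap of 0.98. With endothelial-like sub-clusters at equal weight the endothelial-like value was -0.01. Trp53inp1 had an interval above 0 in tenocyte-like cells (0.61) and below 0 in 4 classes, the lowest of them myogenic-like cells (-0.42), a gap of 1.03. The myogenic-like value was -0.06 without sub-clusters of mostly 1 library. These differences between classes were not tested, since each rests on 1 library per genotype.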

How the results depend on the processing

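No paired analysis was possible because each genotype has 1 library, and no replicate could be left out. Of 14 pairs of gene and class at least 1.5-fold higher, 9 remained in number after thinning to 2000 UMIs, where 35 in place of 57 pairs passed the floors, and 9 with a floor of 50 CPM, where 31 passed. The count was 7 at a fold of 2 and 26 at the lower fold tried. No share of all genes is given here for the alternative settings. The counts in this paragraph therefore describe how the calls moved and do not set the members apart from all genes. The 1 lower pair became 0 under the strict cell filter, with Leiden cluster classes, with a floor of 50 CPM and at a fold of 2, became 2 with endothelial-like, mural-like and myogenic-like sub-clusters at equal weight, and became 4 with no floor and at the lower fold. Cdkn1a was past the fold in 5 classes, and in 1 at a fold of 2; no other alternative moved that number beyond 7. FAP-like cells had 4 genes past the fold, 1 after thinning, 2 at a floor of 50 CPM and 2 at a fold of 2. Tenocyte-like cells had 5, against 3 after thinning, 3 at a floor of 50 CPM and 2 at a fold of 2. Endothelial-like cells had 1, against 0 at a fold of 2, and mural-like cells 1, against 3 at the lower fold. Myogenic-like cells had 3, against 2 without sub-clusters of mostly 1 library, after thinning, with a floor of 50 CPM or at a fold of 2, 6 at the lower fold, and 6 without sub-clusters led by markers of another class, a count that rests on 53 WT-labelled cells with 1 UMI each of Aen and Trp53inp1 and on pairs that pass the floors through the library labelled KO. The log2 ratio of Cdkn1a ranged over the alternatives from 0.78 to 0.96 in FAP-like, 0.87 to 0.99 in endothelial-like, 1.10 to 1.30 in mural-like and 0.76 to 1.06 in myogenic-like cells. None of the 15 ratios past 1.5-fold changed sign under the 18 alternatives to them, while smaller ratios, such as Cdkn1a in myofibre-like barcodes, did. Thinned ratios rest on 1 draw. Depth limits Aen, Eda2r and Zmat3, whose counts are low.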
